A study of Mus musculus with 8 samples.

Results

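The EGF receptor family and its ligands were followed in sorted tuft cells, the rare chemosensory cells of the gut epithelium. The group of genes comprised 10 members chosen by name, the receptors Egfr, Erbb2 and Erbb3 and the ligands Egf, Areg, Ereg, Btc, Tgfa, Hbegf and Nrg1, of 35199 genes in the count table. A count was found for 9 of the 10 members, as for 21805 of the 35199 genes. The expression filter kept 8 of the 10, with Ereg removed for low counts and Nrg1 without a count in any library, and kept 12849 genes in all.

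Bulk RNA sequencing compared 4 mice given scopolamine, an antagonist of muscarinic acetylcholine receptors, with 4 sham mice, to ask how muscarinic blockade changes the tuft cell transcriptome. Osmotic pumps released scopolamine at a daily dose of 0.5 mg per kg or, in sham mice, sodium chloride, each for 7 days, in mice aged 8 to 10 weeks at implantation. All 8 mice carried the BAC transgene Dclk1-DTR-ZSgreen, from founders of mixed CBA and C57BL/6J background backcrossed to C57BL/6J, and live ZSgreen-positive epithelial cells were sorted from the jejunum. The reporter follows the Dclk1 promoter and so marks cells by the activity of 1 gene, and its DTR is, as background, a primate precursor of HB-EGF, carried by both groups. Whether reads of that transgene were counted at mouse Hbegf was not tested. Each library came from 1 mouse, and the 4 libraries of a group are called scopolamine 1 to 4 and sham 1 to 4. Scopolamine 1 and sham 1 were made from 3000 sorted cells and the others from 4000, and sham 1 and sham 3 from 200 pg of RNA with 15 amplification cycles against 1000 pg and 10 cycles for the other 6.

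The total count was 20327680, 20244608, 14343362 and 20857433 in scopolamine 1 to 4. It was 25769940, 40426059, 41428916 and 35391538 in sham 1 to 4. The deepest scopolamine library had fewer counts than the shallowest sham library, so the effects of depth and of treatment cannot be told apart. Levels are given in CPM, counts scaled to a common library size with TMM factors. A floor of 3 counts corresponded to between 0.073 CPM in sham 2 and 0.212 CPM in scopolamine 3, and covers counting error only. All 15 tuft cell markers had counts, with Dclk1 the most abundant at a mean of 4622 CPM. Their summed level was 19630, 15190, 23710 and 13960 CPM in scopolamine 1 to 4 and 20180, 20100, 20420 and 17670 CPM in sham 1 to 4, and the groups overlapped.

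The family consists of receptor tyrosine kinases that pair on ligand binding and signal through RAS and ERK and through PI3K. EGFR binds EGF, TGF-alpha, amphiregulin and related ligands, ERBB2 has no known ligand of its own, and ERBB3 binds neuregulins but has little kinase activity, so that it signals through its partner. Most ligands are made as membrane-bound precursors and shed by metalloproteases, and in the intestine EGF made by Paneth cells supports neighbouring stem cells.

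No member passed an adjusted p under 0.1 with edgeR's quasi-likelihood test, where 0% of the 12849 genes tested were called. In this fit of all 8 libraries no member passed an unadjusted p under 0.05 either, against 3.33% of genes called higher with scopolamine and 2.66% called lower. With limma-voom 0 members and 0 genes were called. DESeq2 also called 0 members, against 1.35% of the 14307 genes to which it gave an adjusted p. No member had groups that did not overlap in CPM, against 1.92% of genes tested that lay higher in every scopolamine library and 1.95% that lay lower. In these bulk libraries, a change in the number of cells of a type and a change in RNA per cell cannot be told apart.

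**Figure D1:**
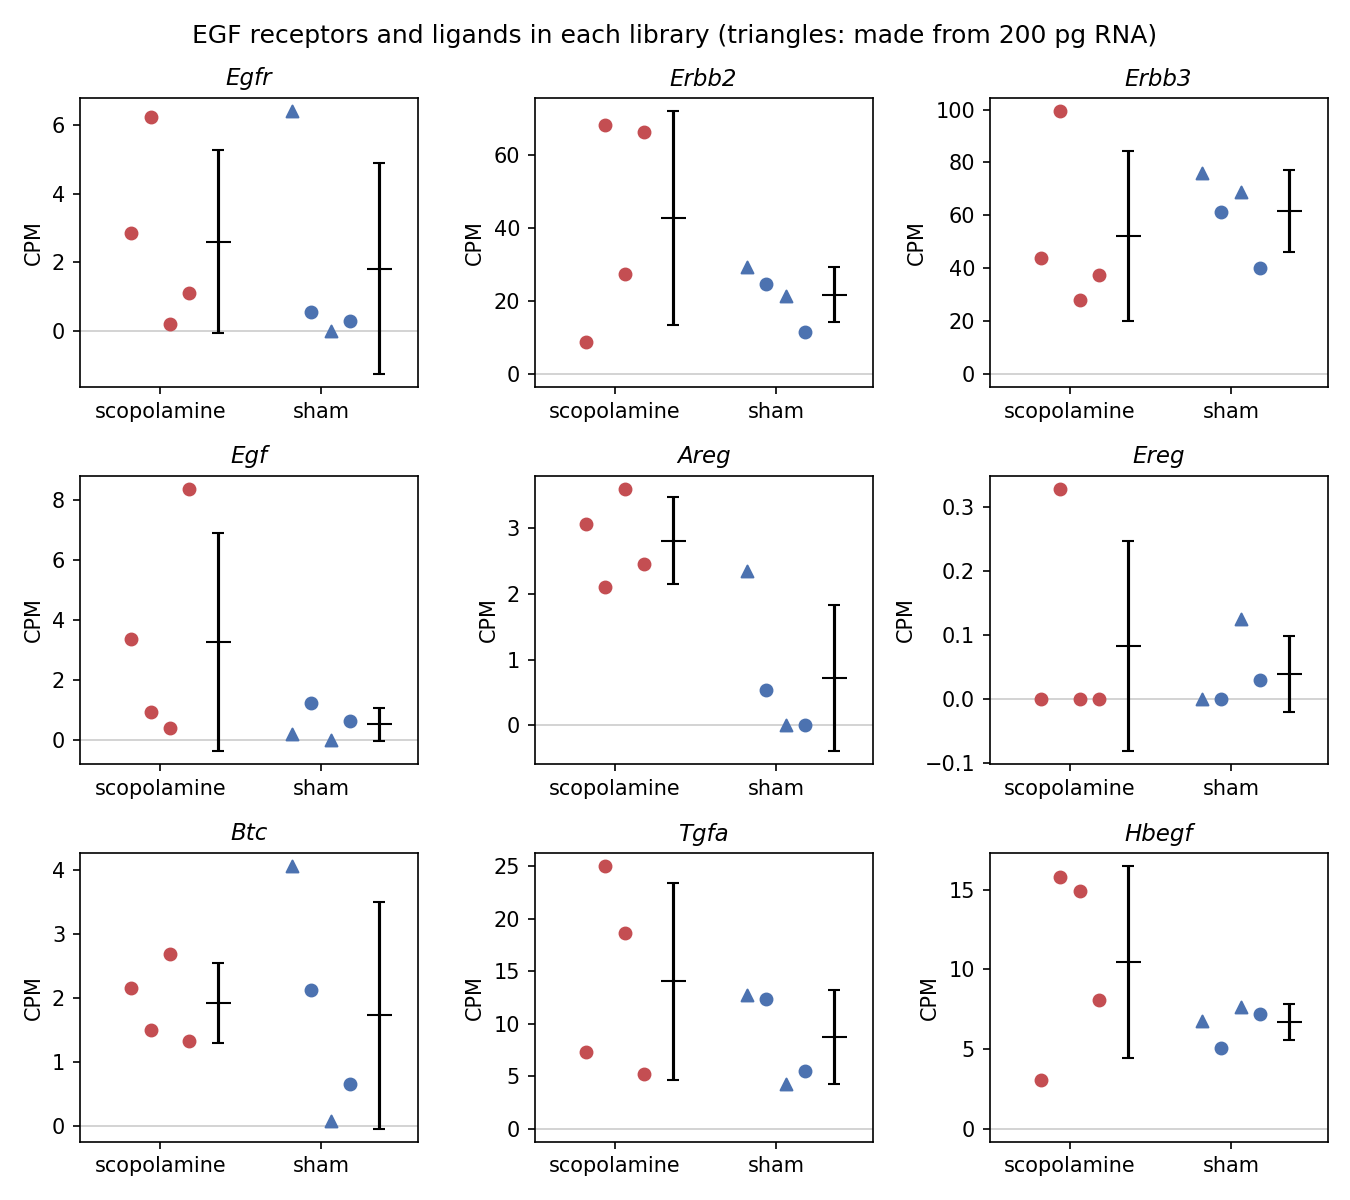
Level in CPM (vertical axis, linear) of the 9 members with a count, with 1 point for each library, triangles for the sham libraries made from 200 pg of RNA, and bars for the mean and SD of each group of 4. The groups overlap in every panel; Areg is the member closest to separation, with sham 1 at 2.35 CPM just above scopolamine 2 at 2.11 CPM.

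Among the receptors, Erbb3 (chromosome 10 from 128567523 to 128589652 of GRCm38, minus strand) was measured at 43.9, 99.4, 27.9 and 37.5 CPM in scopolamine 1 to 4 and at 76.1, 61.2, 68.9 and 40.2 CPM in sham 1 to 4. Scopolamine 2 was the highest library, 2 scopolamine libraries lay below every sham library, and scopolamine 1 lay just above the lowest. Group means were 52.2 ± 32.2 CPM for scopolamine and 61.6 ± 15.5 CPM for sham (SD, n = 4 each). A log2 fold change of -0.24 was fitted, with a standard error of 0.38 (edgeR adjusted p = 0.946), less than the spread between replicates. It turned to 0.02 without the sham libraries made from 200 pg and to 0.04 with amplification cycles as a covariate. It was -0.76 without scopolamine 2 and -0.51 with the letter of the mouse ID as a covariate. That letter is M for scopolamine 1 to 3 and sham 1 and N for scopolamine 4 and sham 2 to 4, so it is unbalanced between the groups and can be only partly separated from treatment. Without scopolamine 3 the value was -0.03.

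Erbb2 (chromosome 11 from 98412470 to 98437716, plus strand), the partner through which ERBB3 signals, was measured at 8.83, 68.1, 27.3 and 66.3 CPM in scopolamine 1 to 4 and at 29.2, 24.5, 21.4 and 11.5 CPM in sham 1 to 4. Scopolamine 2 and scopolamine 4 were far above the other 6 libraries, and scopolamine 1 was the lowest of all 8, so sham lay inside the range of scopolamine. The log2 fold change was 0.98 with a standard error of 0.55 and a 95% interval from -0.24 to 2.2 (edgeR adjusted p = 0.817). Without scopolamine 2 it was 0.65. Without scopolamine 1 it was 1.31 with an adjusted p of 0.541. Erbb2 shares 9 exonic bases with Mien1, which is read from the other strand, and no source says that strand was used in counting.

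Egfr (chromosome 11 from 16752203 to 16918158, plus strand), the receptor of most ligands in the group, was measured at 2.86, 6.24, 0.212 and 1.09 CPM in scopolamine 1 to 4, from 57, 133, 3 and 23 counts. In sham 1 to 4 it was measured at 6.41, 0.56, 0 and 0.299 CPM, from 169, 23, 0 and 10 counts. Scopolamine 2 and sham 1 stood above the rest in their groups, scopolamine 3 was at the floor, and the count of 0 in sham 3 allows up to 0.0744 CPM. The log2 fold change of 0.52 had a standard error of 1.51 (edgeR adjusted p = 0.979). It was -0.39 without scopolamine 2 and was 3.15 without sham 1, so single libraries changed its direction and size. With all 8 libraries its size also moved, to 2.505 with limma-voom and 2.585 with amplification cycles as a covariate.

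The libraries with the highest Egfr were set beside the markers of other cell types after the values were seen. The summed level of 14 enterocyte markers, all with counts and led by Fabp1, was 3343, 7199, 6365 and 3710 CPM in scopolamine 1 to 4 and 6664, 2639, 2751 and 2582 CPM in sham 1 to 4. That of 10 lymphocyte markers, all with counts and led by Ptprc, was 121.6, 208.8, 154.9 and 58.58 CPM in scopolamine 1 to 4 and 251.4, 57.82, 78.76 and 68.72 CPM in sham 1 to 4. Ptprc alone was at 53.7, 77.2 and 65 CPM in sham 2 to 4, most of the sum there. Cd3e was at 0.073, 0.174 and 0 CPM in those libraries, so the sum there says little of lymphocytes beyond Ptprc. Scopolamine 2 and sham 1, the highest in Egfr, were also the highest in lymphocyte markers and the highest of their groups in enterocyte markers. The sort was gated on epithelial cells, and lymphocyte markers were still measured. Among them, Gzma was at 67 CPM in sham 1, 49.3 CPM in scopolamine 2 and 16.2 CPM in scopolamine 1, the next. The part of the enterocyte and lymphocyte markers in the Egfr level was not tested.

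Levels of different genes were compared per length, as CPM per kb of the longest annotated transcript. On this scale the level of Erbb3 was 9.45 ± 3.97 (SD, n = 8), that of Erbb2 6.41 ± 4.55 and that of Egfr 0.216 ± 0.264 CPM per kb. Erbb3 lay above Erbb2 in 6 of 8 libraries, which does not exceed the spread of either gene. The ratio of Erbb2 to Erbb3 per length was 0.241, 0.822, 1.17 and 2.12 in scopolamine 1 to 4 and 0.461, 0.481, 0.373 and 0.343 in sham 1 to 4. The sham libraries were close together, whereas the scopolamine libraries spanned the lowest and the highest ratios. Of the summed receptor level per length, Egfr made up 1.21% ± 1.34 (SD, n = 8), at most 3.29% in sham 1.

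Among the ligands, Hbegf, which encodes the heparin-binding ligand of EGFR and ERBB4, had the highest mean level per length of the member ligands. It was measured at 3.06, 15.8, 14.9 and 8.05 CPM in scopolamine 1 to 4 and at 6.79, 5.06, 7.62 and 7.23 CPM in sham 1 to 4. The sham libraries were close to each other, and scopolamine lay above all of them in 3 libraries and below all in scopolamine 1. Its log2 fold change was 0.65 with a standard error of 0.56 (edgeR adjusted p = 0.884), and 0.37 without scopolamine 2.

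Tgfa (chromosome 6 from 86195223 to 86275719, plus strand), an EGFR ligand, was measured at 7.32, 25.0, 18.6 and 5.26 CPM in scopolamine 1 to 4 and at 12.7, 12.4, 4.24 and 5.47 CPM in sham 1 to 4. Scopolamine 2 and scopolamine 3 were the highest libraries, as for Hbegf, and the remaining 6 were mixed between groups. For Tgfa the log2 fold change was 0.69 with a standard error of 0.60 (edgeR adjusted p = 0.884), and -0.03 with the letter of the mouse ID as a covariate. Without scopolamine 2 it was 0.25, and it ran up to 0.96 with other single libraries left out. Tgfa shares 118 exonic bases with a predicted transcript on the opposite strand.

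Areg (chromosome 5 from 91139599 to 91148432, plus strand), which encodes the EGFR ligand amphiregulin, was measured at 3.06, 2.11, 3.60 and 2.46 CPM in scopolamine 1 to 4, from 61, 45, 51 and 52 counts. In sham 1 to 4 it was measured at 2.35, 0.536, 0 and 0 CPM, from 62, 22, 0 and 0 counts. The scopolamine libraries were close together, while sham ranged from within the scopolamine values in sham 1 to no count in sham 3 and sham 4, where 0 counts allow up to 0.0744 and 0.0896 CPM. The groups overlapped through sham 1 alone. Amphiregulin's gene had a log2 fold change of 1.96 with a standard error of 1.49 and a 95% interval from -1.32 to 5.25 (edgeR adjusted p = 0.869). Without sham 1 it was 3.94, with an adjusted p of 0.518.

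Egf (chromosome 3 from 129677565 to 129755316, minus strand) was measured at 3.36, 0.938, 0.424 and 8.38 CPM in scopolamine 1 to 4, from 67, 20, 6 and 177 counts. In sham 1 to 4 it was measured at 0.227, 1.24, 0 and 0.657 CPM, from 6, 51, 0 and 22 counts. Scopolamine 4 and scopolamine 1 were above every sham library, and the other 2 scopolamine libraries lay within the sham range. This gave a log2 fold change of 2.61 with a standard error of 1.37 (edgeR adjusted p = 0.813; DESeq2 adjusted p = 0.45), and 1.55 without scopolamine 4. Egf shares 500 and 607 of its 11275 exonic bases with 2 antisense genes, and reads within those shared stretches cannot be told apart without strand.

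Markers of Paneth cells, the known intestinal source of EGF, were set beside Egf after its values were seen. The summed level of 9 Paneth markers, all with counts and led by Lyz1, was 95.85, 174.3, 55.88 and 1485 CPM in scopolamine 1 to 4 and 104.8, 41.87, 128.1 and 77.27 CPM in sham 1 to 4. Scopolamine 4 was the highest library in both Egf and Paneth markers, whereas scopolamine 1, the next in Egf, was among the other libraries in Paneth markers. The part of these markers in the Egf level was not tested.

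Btc (chromosome 5 from 91357261 to 91402994, minus strand), which encodes betacellulin, a ligand of EGFR and ERBB4, was measured at 2.16, 1.5, 2.68 and 1.33 CPM in scopolamine 1 to 4 and at 4.06, 2.12, 0.0744 and 0.657 CPM in sham 1 to 4. The scopolamine libraries lay inside the range of sham, which ran from the floor in sham 3 to the highest value in sham 1. Btc had a log2 fold change of 0.15 with a standard error of 1.01 (edgeR adjusted p = 0.993), and its sign turned in 4 alternative settings. With limma-voom the Btc value was higher, at 1.247. Ereg (chromosome 5 from 91074622 to 91093646, plus strand), which encodes epiregulin, had counts only in scopolamine 2 with 7, sham 3 with 5 and sham 4 with 1, the last under the floor. Nrg1, which encodes a neuregulin that binds ERBB3 and ERBB4, had no count in any library, which allows up to 0.212 CPM in the shallowest.

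Of the summed ligand level per length, Hbegf made up 40.8% ± 18.4 (SD, n = 8), Tgfa 31.3% ± 10.3 and Areg 16.4% ± 13.7, on the length of the longest transcript. The share of Areg ran from 0% in sham 3 and sham 4 to 39.1% in scopolamine 1, and that of Egf reached 21.8% in scopolamine 4. Across the 5 ligands past the filter, the log2 fold changes ran from 0.15 to 2.61 with a median of 0.69, beside a median of -0.01 over all genes tested. All 5 were positive, beside 6305 positive and 6544 negative over all genes tested. The sign of Btc and that of Tgfa turned in other settings, and 0 of 5 passed either threshold in the edgeR fit of all 8 libraries. Of the family ligands outside the members that passed the filter, Epgn was at -3.09, Nrg4 at 0.11 and Nrg2 at 0.76. In other settings Areg and Egf passed the unadjusted threshold, Areg with limma-voom and without sham 1, and Egf with DESeq2 and with the letter of the mouse ID as a covariate, where 7.79%, 9.1%, 7.26% and 5.3% of all genes tested passed it.

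**Figure D2:**
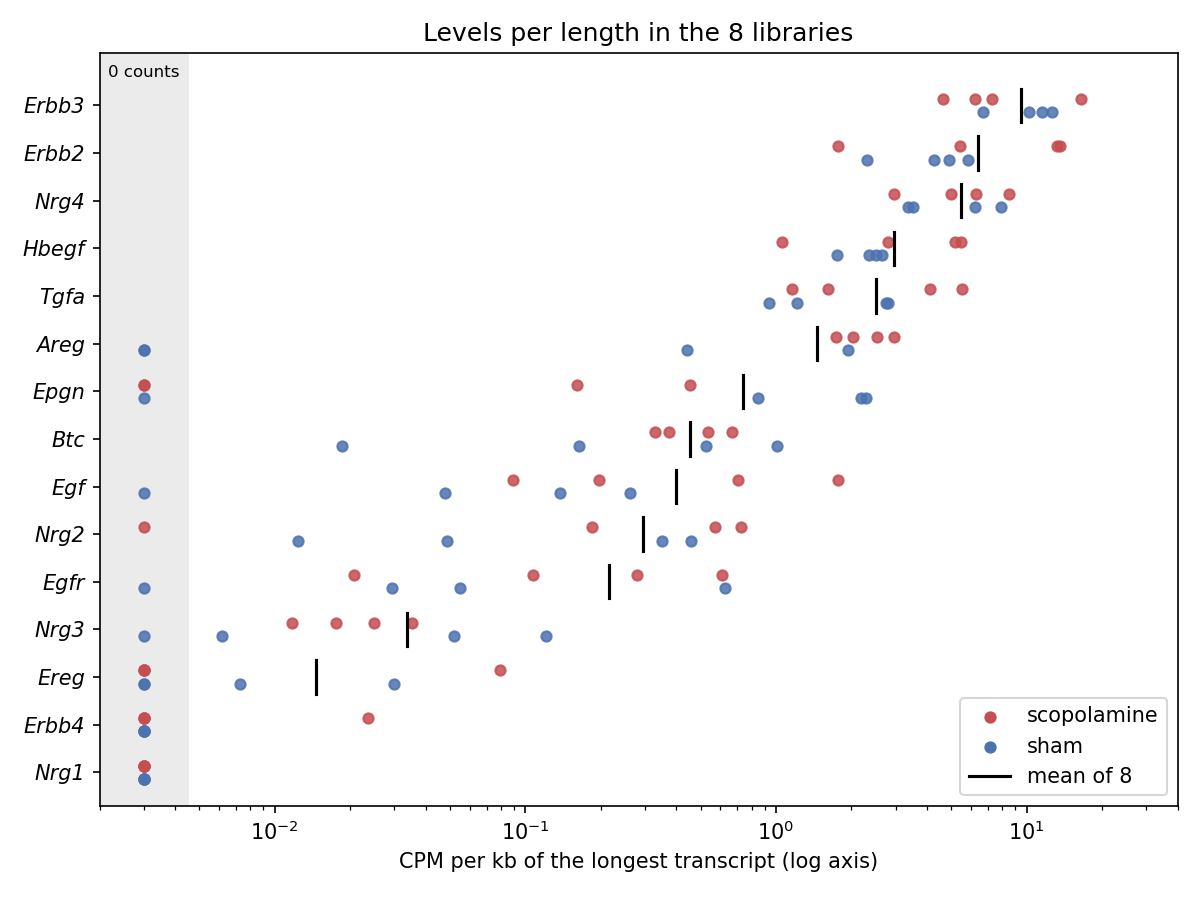
Level per length (horizontal axis, CPM per kb of the longest transcript, log axis) of the 10 members and 5 other family genes, with 1 point for each of the 8 libraries and a line at the mean; points in the shaded band are libraries with 0 counts, and the mean of Erbb4, inside that band, is not drawn. Erbb3 and Erbb2 are at the top with means of 9.45 and 6.41 CPM per kb, Hbegf leads the member ligands at 2.96, and Nrg1 has no count.

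The rest of the family comprised the receptor Erbb4, the neuregulins Nrg2, Nrg3 and Nrg4, and Epgn, which encodes the EGFR ligand epigen. Nrg4, an ERBB4 ligand, was at 5.47 ± 2.11 CPM per kb (SD, n = 8), above Hbegf in 7 of 8 libraries. That order depends on the length used: over the union of annotated exons, which is 6075 bases for Nrg4 against 2095 for its longest transcript, Nrg4 was at 1.89 ± 0.728 and Hbegf at 1.77 ± 0.929 CPM per kb, and Nrg4 lay above Hbegf in 4 of 8 libraries. It was measured at 10.5, 6.19, 17.8 and 13.1 CPM in scopolamine 1 to 4 and at 7.01, 13.1, 7.37 and 16.6 CPM in sham 1 to 4, and the groups overlapped over almost their whole range (log2 fold change 0.11, standard error 0.48, edgeR adjusted p = 0.991). Nrg4 shares 368 exonic bases with Fbxo22 on the opposite strand, so part of its reads may belong to that gene. Its receptor gene Erbb4 had counts in scopolamine 4 alone, at 0.284 CPM. Nrg2 ran from 0 to 2.21 CPM and Nrg3 from 0 to 0.487 CPM over the 8 libraries.

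Epgn was measured at 0, 0.797, 0.283 and 0 CPM in scopolamine 1 to 4 and at 4.02, 1.48, 0 and 3.85 CPM in sham 1 to 4. It was higher in 3 sham libraries than in any scopolamine library, and sham 3 had no count. Epgn had a log2 fold change of -3.09 with a standard error of 1.71 (edgeR adjusted p = 0.815).

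In the order of mean level per length, Erbb3 was followed by Erbb2, Nrg4, Hbegf, Tgfa, Areg, Epgn, Btc, Egf, Nrg2, Egfr, Nrg3, Ereg, Erbb4 and Nrg1. Hbegf and Tgfa at 2.96 and 2.51 CPM per kb lay above each other in 4 libraries each, as did Erbb2 and Nrg4, Epgn and Btc, and Egf and Nrg2. Those neighbours did not differ beyond their spread. Over the union of exons, Egf was at 0.169 CPM per kb, below Nrg2 at 0.286 and Egfr at 0.195, and Hbegf and Tgfa were level at 1.77 and 1.75. Erbb2 and Nrg4 kept their order on that length but lay further apart, at 6.17 and 1.89 CPM per kb. The other genes kept their order as well.

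Epgn, Ereg, Areg and Btc lie together on chromosome 5, between 91027464 and 91402994. Areg and Epgn, the outer pair in fold change, had opposite signs with intervals that include 0. Btc and Areg are shown by their promoters, the 250 bases before the transcript start in RefSeq on GRCm38.p6, because they are the members of this cluster past the filter. Areg is read on the plus strand (chr5:91139349-91139598) and Btc on the minus strand (chr5:91402995-91403244), each 5′ to 3′, with motif matches in capitals.
Areg: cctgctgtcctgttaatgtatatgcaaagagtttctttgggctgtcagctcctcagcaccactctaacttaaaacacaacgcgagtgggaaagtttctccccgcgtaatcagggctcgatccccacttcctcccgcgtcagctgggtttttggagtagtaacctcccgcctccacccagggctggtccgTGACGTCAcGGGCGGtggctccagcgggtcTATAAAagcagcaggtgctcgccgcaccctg
Btc: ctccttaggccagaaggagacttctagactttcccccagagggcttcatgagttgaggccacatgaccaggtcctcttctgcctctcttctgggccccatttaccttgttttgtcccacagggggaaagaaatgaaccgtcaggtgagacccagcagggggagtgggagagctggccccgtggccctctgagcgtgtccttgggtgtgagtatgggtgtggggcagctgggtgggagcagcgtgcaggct
The motifs searched on both strands were TATAAA, the cyclic AMP response element TGACGTCA, the AP-1 motif TGANTCA, the GC box GGGCGG and the ETS motif CCGGAAG. They were found in 12.4%, 1.55%, 6.75%, 32.7% and 6.91% of 32851 promoters of the same length. The Areg promoter held TGACGTCA at position -61, GGGCGG at -52 and TATAAA at -31 from the start, and that of Btc held none of the 5. A match describes letters only, and the absence of a match says nothing of a factor. Of the 15 family genes, 10 were found in the promoter table.

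The pathway around the receptors was described with 62 other genes, of which 57 passed the filter and 0 had an adjusted p under 0.1 with edgeR. At an unadjusted p under 0.05, 4 of the 57 were higher with scopolamine, where 3.33% of all genes tested were, and 1 was lower, where 2.66% of all genes were. The median log2 fold change of the 57 was 0.11 beside -0.01 over all genes tested. Groups did not overlap for 2 of the 57 in the higher direction, against 1.92% of all genes, and for 2 in the lower, against 1.95%. These counts are small, and nothing particular to the pathway is read from them. The 4 higher at that p were Shc1, Rps6ka1, Fos and Etv5 and the lower was Hras, of which Shc1 and Rps6ka1 are named because of their values.

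**Figure D3:**
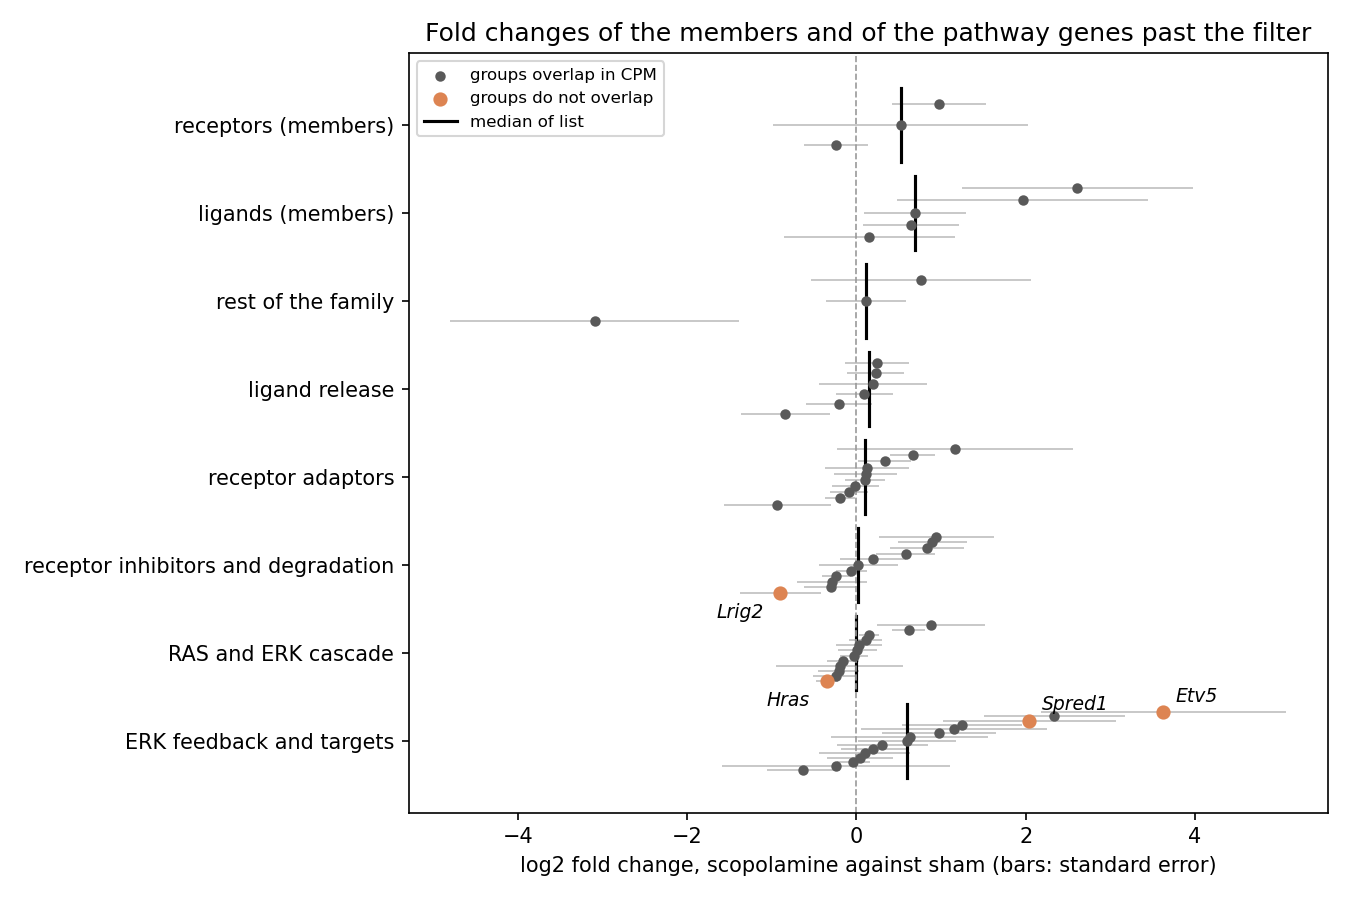
Log2 fold change of scopolamine against sham (horizontal axis) for the members and pathway genes past the filter, by list, with bars for the standard error and black lines for the median of each list. Orange points mark the 4 genes whose groups do not overlap in CPM, Etv5 and Spred1 on the higher side and Hras and Lrig2 on the lower.

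Ligand release was represented by 7 genes, 6 of them tested, with a median log2 fold change of 0.14. The highest per length were Rhbdf1, an inactive rhomboid that controls the sheddase ADAM17, at 12.1 CPM per kb, and Adam10, the sheddase of EGF and betacellulin, at 7.70 CPM per kb. Adam10 was measured at 38.2 ± 11.4 CPM with scopolamine and 32.6 ± 12.1 CPM in sham (SD, n = 4 each), within the spread between replicates. The 10 receptor adaptors, all tested, had a median of 0.11. The highest per length were Grb2 at 13.7 and Crk at 13.1 CPM per kb, with log2 fold changes of -0.09 and 0.11. Shc1, which links the receptors to GRB2, was measured at 49.3 ± 11.8 CPM with scopolamine and 31.1 ± 8.49 CPM in sham (SD, n = 4 each; edgeR adjusted p = 0.812).

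Receptor inhibitors and degradation were represented by 11 genes, all tested, with a median of 0.03. Stub1, a ubiquitin ligase, and Ptpn1, a tyrosine phosphatase, were the highest per length, at 130.8 and 24.2 CPM per kb. Lrig2, of a family of receptor inhibitors, was measured at 3.81, 3.94, 5.79 and 6.54 CPM in scopolamine 1 to 4 and at 9.37, 11.9, 7.39 and 8.81 CPM in sham 1 to 4. Every scopolamine library lay below every sham library, and the log2 fold change was -0.90 with a standard error of 0.48 (edgeR adjusted p = 0.813).

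The RAS and ERK cascade had 12 genes, all tested, with 6 positive and 6 negative log2 fold changes and a median of -0.01. The highest per length were Mapk3, which encodes ERK1, at 212.8 and Map2k2, which encodes MEK2, at 138.5 CPM per kb. Hras, a RAS GTPase, was measured at 152, 142, 145 and 144 CPM in scopolamine 1 to 4 and at 163, 189, 196 and 197 CPM in sham 1 to 4. The scopolamine libraries were within a narrow range below all sham libraries, and the log2 fold change was -0.35 with a standard error of 0.13 (edgeR adjusted p = 0.812). Hras was the 1 pathway gene that DESeq2 placed under the threshold, with an adjusted p of 0.0996. It was 0.101, over the threshold, when genes without a count were left out of that test first. Rps6ka1, a kinase activated by ERK, was measured at 236.6 ± 31.1 CPM with scopolamine and 154.3 ± 38.8 CPM in sham (SD, n = 4 each; edgeR adjusted p = 0.812).

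The list of ERK feedback and target genes had 17 genes, 15 of them tested, with 12 positive and 3 negative log2 fold changes and a median of 0.60, beside 6305 positive and 6544 negative and a median of -0.01 over all genes tested. Etv5, an ETS factor induced by ERK signaling, was measured at 2.46, 8.58, 4.10 and 4.97 CPM in scopolamine 1 to 4 and at 0, 0.414, 0 and 1.20 CPM in sham 1 to 4. Every scopolamine library lay above every sham library, where sham 1 and sham 3, both made from 200 pg, had no count. For Etv5 the log2 fold change was 3.63 with a standard error of 1.45 (edgeR adjusted p = 0.812).

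Spred1, an inhibitor of RAS signaling, was measured at 3.11, 3, 3.67 and 6.68 CPM in scopolamine 1 to 4 and at 0.152, 0.0974, 1.64 and 2.09 CPM in sham 1 to 4. The groups did not overlap, with scopolamine higher, and the log2 fold change was 2.04 with a standard error of 1.02 (edgeR adjusted p = 0.812). Phlda1 at 91.6 and Fos at 13.6 CPM per kb were the highest of the list per length. Fos, an immediate early gene, was measured at 10.9, 80.9, 80.7 and 18.8 CPM in scopolamine 1 to 4 and at 23.3, 5.82, 1.61 and 7.23 CPM in sham 1 to 4. Scopolamine 2 and scopolamine 3 were the highest libraries in Fos, as in Tgfa and Hbegf, and sham 1 lay above the other 2 scopolamine libraries. Scopolamine 2, scopolamine 3 and sham 1, the 3 highest libraries in Fos and in Tgfa, were also the 3 highest in the summed enterocyte markers, at 7199, 6365 and 6664 CPM, and in the lymphocyte markers, at 208.8, 154.9 and 251.4 CPM. In each sum, the place of 1 library rested on a single gene. Fabp1 made up 5280 CPM of the enterocyte sum in sham 1, and Ptprc 130 CPM of the lymphocyte sum in scopolamine 3. Without Fabp1 sham 1 fell below scopolamine 4, and without Ptprc scopolamine 3 fell below scopolamine 1 and scopolamine 4. Scopolamine 2 and scopolamine 3 stayed the highest without Fabp1, as did sham 1 and scopolamine 2 without Ptprc. Scopolamine 2, scopolamine 3 and sham 1 were also highest in Apoa1, Fabp2, Cd3g and Gzmb, but not in every marker. The part of these markers in Fos and Tgfa was not tested. Fos had a log2 fold change of 2.34 with a standard error of 0.83 (edgeR adjusted p = 0.812).

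Over the 8 libraries, the genes whose log2 CPM was most like that of Erbb3 were Zfp777 (Pearson's r = 0.964), Acsm3, 2010300C02Rik, Tgif1 and Ankrd46 (r = 0.885), of 12848 genes compared. Those most like Hbegf were Hmgn3 (r = 0.941), Sin3a, Crybg3, Ces2a and Gm10800 (r = 0.891). These values are a description of 8 libraries that share group and depth, and carry no test.

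Markers of other cell types also varied between libraries. The sort was gated on live epithelial cells, and markers of myeloid cells, stroma and endothelium are given as measured levels only. The summed level of 14 enteroendocrine markers, all with counts and led by Chgb, was 269.3, 738.3, 252.6 and 841.1 CPM in scopolamine 1 to 4 and 29.35, 17.28, 1166 and 30.39 CPM in sham 1 to 4. That of 9 goblet cell markers, led by Tff3, was 3551, 2130, 687.5 and 1121 CPM in scopolamine 1 to 4 and 1380, 355.8, 1181 and 358.4 CPM in sham 1 to 4. Groups overlapped for both lists, and sham 3 stood apart from the other sham libraries in enteroendocrine markers. The 8 stem and progenitor markers, led by Slc12a2, summed to between 186.9 CPM in scopolamine 3 and 334.9 CPM in sham 1. The 7 myeloid markers, led by Lyz2, summed to 18.56, 21.29, 33.7 and 25.81 CPM in scopolamine 1 to 4 and 17.06, 15.02, 17.24 and 15.09 CPM in sham 1 to 4. This sum lay higher in every scopolamine library than in any sham library, the only marker list to do so. Of all genes tested, 1.92% lay higher in that way. No single myeloid marker separated the groups, and Csf1r, Adgre1 and Cx3cr1 had 7 counts or fewer in every library. Those of stroma and endothelium, led by Pecam1, summed to between 12.22 and 24.23 CPM, with 2 of 9 at or under the floor in all libraries. The part of these markers in the levels of the members and pathway genes was not tested.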

How the data were processed

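RNA from 8 libraries was sequenced, 1 per mouse. Per the submitters' notes and the study's methods, the authors ran bcl2fastq 2.20 and then kallisto 0.44.0 against the GRCm38 transcriptome, collected genes with tximport, and deposited the resulting estimated counts as raw values. They were rounded to whole numbers, which changed 0 values. Groups came from the labels, and RNA input and cycles from the study's source data. Neither the annotation nor a strand setting is given in the sources used here.

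Groups were tested by the quasi-likelihood method of edgeR 4.0.16 in R 4.3.3, after filterByExpr and TMM, with Benjamini-Hochberg adjustment over every gene tested and a threshold of 0.1. Members removed by the filter were fitted among all genes with a count. Standard errors were derived from the fold change and the F statistic of the test. Intervals at 95% follow from the fold change and that standard error, so both restate the test. Totals ran from 14343362 to 41428916 counts. Positions and lengths came from GENCODE release M21, and promoters from RefSeq. The procedures were tested on simulated data. Alternatives comprised the Wald test of DESeq2 1.42.0, voom from limma 3.58.1, robust estimation, other normalizations, filters and thresholds, thinning, libraries left out, and cycles or mouse ID letter as covariates.

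The members and lists were chosen with earlier results of these data known. Named genes were the family, and from each pathway list the 2 highest per length, those with an adjusted p under 0.1 and those whose groups did not overlap, with the 5 genes most like the leading receptor and ligand; Shc1 and Rps6ka1 fall outside this rule and were chosen after their values were seen. Libraries of a group differed by a chi-square of at least 67.5 per degree of freedom, so no pair was a duplicate.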

Additional observations from a re-analysis of the deposited data

Results flagged for a closer look

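Egfr in sham 1 was 6.41 CPM, far from the other 3 sham libraries, with a gap to the nearest of 0.913 of the range of the group. Ereg in scopolamine 2 was 0.328 CPM, from 7 counts, where the other 3 scopolamine libraries had none, a gap equal to the whole range. Chance marks about 1 in 20 such groups when values are normally distributed, and 18 were examined. A group with counts in 1 library alone, as for Ereg, is always marked, so nothing is read from that flag. Egfr in sham was low and uneven in counts, so the rate of 1 in 20 is not applied to it either.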

How the results depend on the processing

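No member had an adjusted p under 0.1 in any setting run. Areg, Egf, Erbb2 and Hbegf kept a positive log2 fold change in all settings that tested them, 19 each for Areg and Egf and 20 each for Erbb2 and Hbegf, from 1.55 to 4.59 for Areg, 1.55 to 3.46 for Egf, 0.65 to 1.31 for Erbb2 and 0.36 to 0.95 for Hbegf. At an unadjusted p under 0.05 there were 7 of 175 values: Areg with limma-voom and without sham 1, Egf in both DESeq2 runs and with the letter of the mouse ID as a covariate, Erbb2 without scopolamine 1 and Erbb3 without scopolamine 2. Of all genes tested, 7.79% passed with limma-voom, 9.1% without sham 1, 7.26% in both DESeq2 runs, 5.3% with the letter, 7.44% without scopolamine 1 and 3.33% without scopolamine 2, so nothing particular to the members is read from the 7. Signs turned for Erbb3 without the 2 libraries made from 200 pg (0.02) and with amplification cycles as a covariate (0.041). They turned for Btc (-0.24) and Tgfa (-0.032) with the letter of the mouse ID as a covariate. With single libraries left out, log2 fold changes ran from -0.39 to 3.15 for Egfr, -3.31 to 2.54 for Ereg, -0.25 to 1.002 for Btc, -0.76 to -0.03 for Erbb3 and 0.25 to 0.96 for Tgfa, and the causes were not tested.

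The count of all genes with an adjusted p under 0.1 was 0 with edgeR, 193 with DESeq2, 9 without the libraries made from 200 pg and 5 with amplification cycles as a covariate, and ran from 0 to 2 with single libraries left out. DESeq2 was first run with genes without a count left out, which gave 190. Its default, with all rows kept, was put in place after that count was seen and with the count of 193 already known from an earlier analysis; the change moved Hras across the threshold and no member. The count at an unadjusted p under 0.05 was 770 with edgeR, 1531 in both DESeq2 runs, 1831 without a filter and 1197 without the libraries made from 200 pg, and ran from 442 to 1196 with single libraries left out. Among pathway genes it was 5, and 8 in both DESeq2 runs, with limma-voom and without the libraries made from 200 pg, and ran from 2 to 6 with single libraries left out.

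Areg, Egf, Egfr and Btc had 3 or fewer counts in sham 3, the deepest library, and Egfr had 3 in scopolamine 3, the shallowest. Sham 3 was also made from 200 pg with 15 cycles. It had 15812 genes with a count, the fewest of the 8 libraries, against 17197 in sham 2. Its low counts are therefore not a sign of absence, and the part of RNA input in them was not tested. Whether Nrg1, Ereg and Erbb4 differ was not detectable. Levels per length of the members moved by less than their SD over the union of exons, although Egf fell below Egfr; this length was extended to Nrg4 and the rest of the family after seeing the data.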
